A study of Homo sapiens with 4 samples.

Results

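The genes of the ATP-binding cassette (ABC) family were followed in HCC1143, an established triple-negative breast cancer cell line, with and without paclitaxel. Members were all gene symbols in the count tables that match ABCA to ABCG followed by a number, with antisense symbols left out; the tables held 0 such antisense symbols. The rule found 31 genes of the 18131 listed in at least 1 table: 9 ABCA, 5 ABCB, 7 ABCC, 3 ABCD, 1 ABCE, 3 ABCF and 3 ABCG genes. Of these, 26 were listed in all 4 tables and 5 in fewer. ABCB1, which encodes P-glycoprotein, the best known exporter of taxanes, was listed in no table. The 8 members of the drug-efflux group, 7 ABCC genes and ABCG2, are described apart.

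The same line was used in all 4 groups. After 24 h of attachment the cells received either DMSO, the solvent, or 1 nM paclitaxel, a taxane that stabilises microtubules, and they were collected 24 h or 72 h later for 10x single-cell sequencing of polyadenylated RNA. Each group was 1 library, so no difference between groups has a replicate check or a p-value. The counts of unique molecular identifiers (UMIs) were deposited per gene and cell, and a table lists a gene when at least 1% of its barcodes held a UMI of it, so a gene that is not listed is not a measured 0.

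After filtering, 520 to 1101 cells per library remained, with 34850724 to 72024235 UMIs per library and medians of 54864 to 59670 UMIs per cell. Between pairs of libraries 0 to 4 cell barcodes were shared. Ribosomal protein genes took a median of 27.1% and 33.2% of a cell's UMIs in DMSO and paclitaxel at 24 h, and 40.6% and 27.5% at 72 h. The share of cells called G1 was 16.6% and 39.6% at 24 h and 54.8% and 69.6% at 72 h, in the same order. All 6 breast epithelial markers were listed in every library, with summed levels of 2057 to 3510 counts per 1000000 UMIs (CPM). Of the receptors, ERBB2 lay between 20.4 and 23.5 CPM and ESR1 between 0.31 and 0.66 CPM, and PGR was listed nowhere. Markers of blood cells, fibroblasts and endothelial cells summed to at most 7.60, 14.8 and 10.9 CPM. CD3E, CD3D, HBB, COL1A2, DCN, LUM and PECAM1 were listed nowhere. COL1A1 (10.0 to 13.9 CPM), KDR (1.97 to 10.5), CD14 (1.35 to 4.25), PDGFRA (0.28 to 0.86) and VWF (0.28 to 0.49) were listed in all 4 tables. LYZ, HBA1, HBA2, PTPRC, CD79A and CDH5 were listed in some tables, at 1.87 CPM or less.

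ABC proteins bind and hydrolyse ATP through a conserved nucleotide-binding domain. In most subfamilies this domain drives a membrane transporter: ABCA proteins and ABCG1 move lipids, several ABCB proteins sit in mitochondria or lysosomes, ABCC proteins and ABCG2 export conjugates and drugs, and ABCD proteins act in peroxisomes and lysosomes. ABCE1 and the ABCF proteins have the ATPase domains but no membrane domain, and act on ribosomes and translation. In breast cancer the family is best known for drug export.

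Levels are given as CPM with exact 95% Poisson intervals, which cover counting error only. Because scaling to the total moves all genes when an abundant class changes, ratios are given as relative log2 ratios, that is, after subtracting the median log2 CPM ratio of abundant genes, those averaging 50 CPM or more. That median was -0.14 for paclitaxel against DMSO at 24 h, 0.32 at 72 h, -0.41 for DMSO at 72 h against 24 h and 0.06 for paclitaxel at 72 h against 24 h. A gene was called higher or lower when its relative ratio passed 1.5-fold, it averaged 1 CPM or more over the compared libraries and its interval excluded no difference. Of the 31 members, 23 averaged 1 CPM or more.

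The members lie on many chromosomes, and all are protein coding in GENCODE release 29 (GRCh38). The ones called between paclitaxel and DMSO span chr9:137007227-137028922 (ABCA2, minus strand), chr7:48171458-48647496 (ABCA13, plus), chr21:42199689-42297244 (ABCG1, plus) and chr16:15949577-16143074 (ABCC1, plus). ABCA1 spans chr9:104781002-104928237 (minus) and ABCC3 chr17:50634777-50692252 (plus).

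The members called between paclitaxel and DMSO are given beside the share of all genes called. At 24 h 2 of 21 tested members were higher, ABCA2 and ABCA13, and 0 were lower, where 9.42% and 1.91% of the 13147 genes tested were called higher and lower. At 72 h 1 of 23 was higher, ABCG1, and 2 were lower, ABCA2 and ABCC1, against 13.0% higher and 11.0% lower of 13687 genes. The median relative log2 ratio of the tested members was -0.04 at 24 h, where all genes had 0.03, and -0.08 at 72 h, where all genes had -0.03. With time in DMSO, 8 of 22 members were higher at 72 h than at 24 h and 0 lower. Of 13201 genes, 25.5% and 4.70% were called higher and lower there. The median of the members there was 0.35 beside 0.23 for all genes, and without subtraction of the median of abundant genes -0.06 beside -0.18. In paclitaxel 3 of 23 members were higher at 72 h than at 24 h and 0 lower, beside 18.3% and 3.42% of 13606 genes. Set against DMSO at 24 h, paclitaxel at 72 h had 7 of 23 members higher, with ABCG1, ABCA1, ABCA13, ABCA7 and ABCA3 among them, and 0 lower, beside 26.5% and 8.76% of 13599 genes. These comparisons share libraries, so their counts are not independent. Whether the members differed from all genes was not tested.

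**Figure D1:**
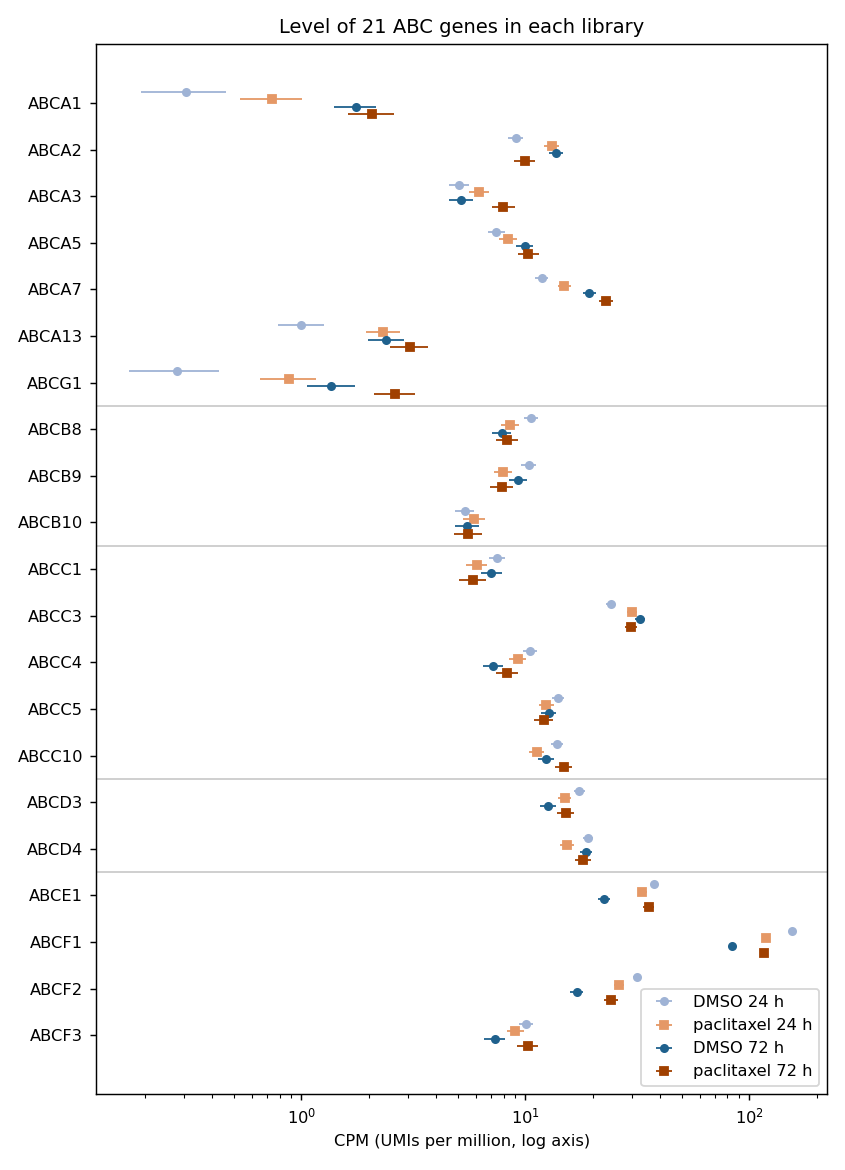
Level in each library of 21 of the 23 members that averaged 1 CPM or more, in CPM on a log axis; points are the 4 libraries, bars the exact 95% Poisson intervals, and grey lines separate lipid, ABCB, ABCC, ABCD and ABCE1/ABCF genes. ABCA1 and ABCG1 lie lowest in DMSO at 24 h (0.31 and 0.28 CPM) and highest in paclitaxel at 72 h (2.07 and 2.61 CPM).

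The summed level of the lipid transporter genes (ABCA, ABCG1 and ABCG4) was 35.3 CPM with DMSO and 47.3 CPM with paclitaxel at 24 h, and 54.7 and 60.2 CPM at 72 h, over 8, 9, 11 and 10 listed genes. Single genes differed in their order: ABCA2 was lower in paclitaxel at 72 h than at 24 h, and ABCG4 lower in DMSO at 72 h (0.26 CPM) than at 24 h (0.40 CPM). Of the 6 ABCA genes tested, 5 were called higher in DMSO at 72 h against 24 h, where 25.5% of all genes were.

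ABCA1 encodes the exporter that loads cholesterol and phospholipid onto apolipoprotein A-I. It lay at 0.31 CPM (0.19 to 0.46) with DMSO and 0.74 CPM (0.53 to 1.00) with paclitaxel at 24 h, and at 1.75 CPM (1.40 to 2.16) and 2.07 CPM (1.62 to 2.60) at 72 h. Both 72 h libraries were above both 24 h libraries with no overlap of the intervals, while the intervals of the 72 h libraries overlapped each other. The relative log2 ratio of 72 h to 24 h was 2.93 (2.24 to 3.67) in DMSO and 1.42 (0.85 to 2.01) in paclitaxel, and both were called. In cells called G1 alone the paclitaxel call was lost, with a ratio of 0.43. Paclitaxel against DMSO gave -0.08 at 72 h, where cells called G1 alone had -0.66 (-1.24 to -0.09), past the limit, and at 24 h, where the mean was under 1 CPM, 1.41 with no call.

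ABCG1, which passes cholesterol to high-density lipoprotein, had a like order of levels. It was at 0.28 CPM (0.17 to 0.43) with DMSO and 0.88 CPM (0.65 to 1.17) with paclitaxel at 24 h, and at 1.36 CPM (1.05 to 1.73) and 2.61 CPM (2.10 to 3.21) at 72 h. Paclitaxel was above DMSO at each time without overlap of the intervals, and it was the 1 member called higher at 72 h, with a relative log2 ratio of 0.62 (0.15 to 1.10). The call at 72 h was lost in cells called G1 (0.46) and under a stricter cell filter (0.52). In the paclitaxel library at 72 h, 51 cells (9.81%) had under 2% MT- UMIs (from the mitochondrial genome), and ABCG1 was at 4.56 CPM in them (13 UMIs) and at 2.44 CPM in the other cells. In DMSO and paclitaxel at 24 h and then at 72 h, the summed endothelial markers were at 2.25, 6.02, 10.8 and 10.9 CPM. KDR, most of that sum, was at 1.97, 5.46, 10.5 and 9.24 CPM. It was thus lower with paclitaxel than with DMSO at 72 h, unlike ABCA1 and ABCG1. PECAM1 was listed in no table. The part of these markers in the levels of ABCA1 and ABCG1 was not tested.

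ABCA2, a lipid transporter of endosomes and lysosomes, was called in opposite directions at the 2 times. Its level was 9.05 CPM (8.37 to 9.77) with DMSO and 13.1 CPM (12.2 to 14.1) with paclitaxel at 24 h, and 13.7 CPM (12.7 to 14.8) with DMSO and 9.93 CPM (8.91 to 11.0) with paclitaxel at 72 h. The 2 high libraries, paclitaxel at 24 h and DMSO at 72 h, overlapped each other and lay above the 2 low ones, which also overlapped. The relative log2 ratio of paclitaxel to DMSO was 0.68 (0.52 to 0.83) at 24 h and -0.79 (-0.98 to -0.60) at 72 h. After thinning of every cell to 20000 UMIs, 16.1% and 21.5% of cells held a UMI of ABCA2 in DMSO and paclitaxel at 24 h, and 24.4% and 15.4% at 72 h. Without subtraction of the median neither ratio passed 1.5-fold (0.53 and -0.47), with the directions kept.

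ABCA13, the largest member of its subfamily, with a role that is little known, was at 1.00 CPM (0.78 to 1.26) with DMSO and 2.32 CPM (1.94 to 2.76) with paclitaxel at 24 h. At 72 h it was at 2.40 CPM (1.98 to 2.87) and 3.04 CPM (2.49 to 3.68). DMSO at 24 h was the single low library. The relative log2 ratio of paclitaxel to DMSO was 1.36 (0.93 to 1.79) at 24 h, with 1.44 in cells called G1, 1.26 in S and 1.21 in G2/M. At 72 h it was 0.02, with 0.45 (-0.12 to 1.03) in G1, 0.88 (-0.24 to 1.97) in S and -0.85 (-1.67 to -0.09) in G2/M. The S value rests on 14 UMIs with paclitaxel and 18 with DMSO. The G2/M value, called lower, rests on 20 and 56 UMIs.

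ABCA7, which exports phospholipids and is known from brain lipid metabolism, was at 11.8, 14.9, 19.3 and 23.0 CPM in DMSO and paclitaxel at 24 h and DMSO and paclitaxel at 72 h. Its relative ratio of DMSO at 72 h to 24 h was 1.12 (0.99 to 1.26), and it was called in all 14 alternatives run on these libraries. ABCA5, a lysosomal family member, was at 7.43, 8.40, 9.95 and 10.3 CPM, and ABCA3, the lipid transporter of lung surfactant, at 5.07, 6.22, 5.18 and 7.98 CPM. Neither was called between paclitaxel and DMSO at either time. ABCA5 and ABCA10 overlap on the same strand, so reads of the overlap cannot be assigned to 1 of them with certainty.

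The bases before the start of ABCA1, ABCA2 and ABCA7 are shown, from the promoter table of RefSeq (GRCh38.p14), because ABCA1 had the largest ratio of DMSO at 72 h to 24 h, ABCA2 was called at both times and ABCA7 was called for DMSO at 72 h against 24 h in every alternative run on these libraries; they were chosen after their values had been seen. Of the 31 members 23 matched, with 33 promoters; ABCA4, ABCB5, ABCC1, ABCC3, ABCC8 and ABCG1 were among those with no entry. Each stretch runs 5′ to 3′ on the gene's strand from 250 bases before the start and ends where the first exon of any GENCODE transcript begins. Capitals mark the GC box GGGCGG and the antioxidant response core TGACNNNGC, on either strand.
ABCA1 (chr9:104928238-104928405, minus strand): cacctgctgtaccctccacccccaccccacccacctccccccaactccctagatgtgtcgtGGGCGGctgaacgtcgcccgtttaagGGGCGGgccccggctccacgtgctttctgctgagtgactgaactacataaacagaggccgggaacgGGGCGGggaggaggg
ABCA2, upstream start (chr9:137028923-137029172, minus strand): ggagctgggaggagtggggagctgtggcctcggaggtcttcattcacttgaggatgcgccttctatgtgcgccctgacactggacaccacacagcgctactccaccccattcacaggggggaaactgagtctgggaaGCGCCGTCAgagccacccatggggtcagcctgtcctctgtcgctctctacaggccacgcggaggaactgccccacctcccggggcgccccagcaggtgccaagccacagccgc
ABCA2, downstream start (chr9:137028289-137028487, minus strand): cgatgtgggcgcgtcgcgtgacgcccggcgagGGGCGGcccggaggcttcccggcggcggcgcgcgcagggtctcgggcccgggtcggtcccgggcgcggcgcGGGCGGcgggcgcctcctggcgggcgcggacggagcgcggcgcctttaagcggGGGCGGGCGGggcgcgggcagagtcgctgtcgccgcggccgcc
ABCA7 (chr19:1039857-1040100, plus strand): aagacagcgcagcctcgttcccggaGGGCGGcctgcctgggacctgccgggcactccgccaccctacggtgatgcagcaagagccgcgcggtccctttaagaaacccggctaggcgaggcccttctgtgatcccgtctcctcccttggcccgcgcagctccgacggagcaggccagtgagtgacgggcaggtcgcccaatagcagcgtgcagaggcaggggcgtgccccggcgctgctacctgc
ABCA1, direct repeat (chr9:104928209-104928224, minus strand): TGACCGatagTAACCT

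In these stretches GGGCGG was found 3 times before ABCA1, 4 times before the downstream start of ABCA2, with 2 of those overlapping, and 1 time before ABCA7. TGACNNNGC was found 1 time, before the upstream start of ABCA2. The direct repeat of nuclear receptor half-sites with a spacer of 4 bases (DR4, searched in a degenerate form written with the ABCA1 site in mind), in capitals apart from its spacer, runs from 69 to 54 bases before the RefSeq start of ABCA1. Such repeats are bound by liver X receptors with retinoid X receptors, which sense oxysterols.

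Over whole windows of 250 bases, GGGCGG was in 21 of the 33 member promoters (63.6%) and in 42.6% of all 35116 promoters. TGACNNNGC was in 8 (all promoters 10.9%), CACGTG in 6 (6.34%), TATAAA in 5 (10.7%) and AGGTCA in 2 (12.1%), each on either strand. DR4 was in 1, that of ABCA1, and in 0.0826% of all promoters. Because its search form was written with the ABCA1 site in mind, that match was fixed in advance and its rarity says nothing about ABCA1. A match describes letters only, and no binding was measured.

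Of the 4 tested ABCB genes, 0 were called between paclitaxel and DMSO at either time. Among all genes 9.42% were called higher and 1.91% lower at 24 h, and 13.0% and 11.0% at 72 h. The relative log2 ratios of ABCB8, ABCB9 and ABCB10 were -0.17, -0.24 and 0.28 at 24 h. At 72 h those of ABCB8 (-0.24, -0.46 to -0.02), ABCB9 (-0.56, -0.78 to -0.34) and ABCB10 (-0.30, -0.58 to -0.03) lay below 0. The median of all genes was -0.03 there. Without subtraction of the median of abundant genes ABCB8 and ABCB10 were above 0 at 72 h (0.08 and 0.02), and ABCB9 stayed below (-0.24). ABCB8, a mitochondrial family member, was at 10.6, 8.58, 7.84 and 8.29 CPM in DMSO and paclitaxel at 24 h and DMSO and paclitaxel at 72 h. ABCB9, a peptide transporter of lysosomes, was at 10.3, 7.95, 9.30 and 7.86 CPM, with a relative ratio of -0.56 at 72 h that lay just inside the 1.5-fold limit. ABCB10, a mitochondrial protein linked to heme synthesis, was at 5.36, 5.91, 5.50 and 5.57 CPM. ABCB10 has 3 annotated pseudogene copies and ABCB9 overlaps OGFOD2 and ARL6IP4 on the other strand; whether strand was used in counting is not stated, so both counts are uncertain. ABCB5, a relative of ABCB1, was at 0.32 to 0.55 CPM in the 4 libraries.

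**Figure D2:**
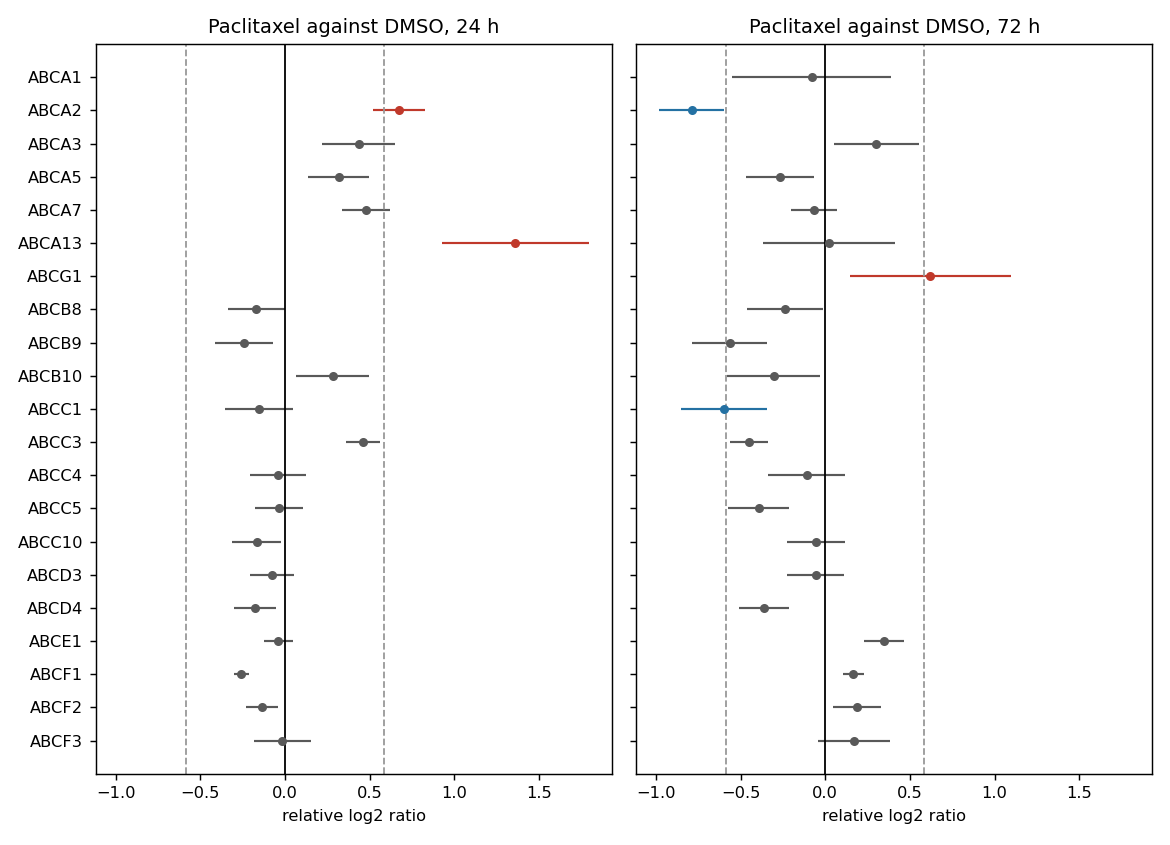
Relative log2 ratio of paclitaxel to DMSO at 24 h (left) and 72 h (right) for the same members as in the plot of levels, where tested; points are ratios of 2 single libraries, bars 95% counting intervals, dashed lines 1.5-fold, and red and blue mark members called higher and lower. ABCA2 is called on opposite sides (0.68 and -0.79), and all 5 ABCC genes, ABCB8, ABCB9 and ABCB10 lie below 0 at 72 h. Without subtraction of the median of abundant genes ABCB8, ABCB10, ABCC4 and ABCC10 are above 0 at 72 h.

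The drug-efflux group kept nearly the same summed CPM in the 4 libraries. ABCC genes and ABCG2 together were at 70.5 CPM (68.6 to 72.5) with DMSO and 69.9 CPM (67.7 to 72.2) with paclitaxel at 24 h, and at 72.8 CPM (70.4 to 75.2) and 71.5 CPM (68.8 to 74.4) at 72 h, with all intervals overlapping. On totals without ribosomal protein and MT- genes the sums were 109, 116, 138 and 110 CPM, so on that scale DMSO at 72 h stood above the other 3 libraries. Of the 5 tested members, 0 were called between paclitaxel and DMSO at 24 h, beside 9.42% higher and 1.91% lower of all genes. Their median relative log2 ratio was -0.04, beside 0.03 for all genes. At 72 h all 5 lay below 0, with a median of -0.39 beside -0.03 for all genes. Of them 1, ABCC1, was called lower, beside 11.0% of all genes. The intervals of ABCC4 (-0.34 to 0.12) and ABCC10 (-0.23 to 0.12) included 0. Without subtraction of the median of abundant genes ABCC4 and ABCC10 were at 0.21 and 0.27. ABCC1, ABCC3 and ABCC5 were then at -0.28, -0.13 and -0.07, and for each of them the CPM intervals of paclitaxel and DMSO at 72 h overlapped.

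ABCC3 encodes MRP3, an exporter of glucuronides and bile salts. It was at 24.0 CPM (22.9 to 25.2) with DMSO and 30.0 CPM (28.6 to 31.5) with paclitaxel at 24 h, and at 32.6 CPM (31.0 to 34.2) and 29.8 CPM (28.0 to 31.6) at 72 h. DMSO at 24 h was below the other 3 libraries. The relative log2 ratio of paclitaxel to DMSO was 0.46 (0.36 to 0.56) at 24 h and -0.45 (-0.56 to -0.34) at 72 h, with no call at either time, and 0.85 (0.75 to 0.95) for DMSO at 72 h against 24 h, which was called. That call was lost in 4 of 14 alternatives, in cells called G1 (0.53), without subtraction of the median (0.44), with the median of genes of 1 to 50 CPM subtracted (0.57) and at a 2-fold limit. Within called phases the ratio at 24 h was 0.55 in G1, 0.71 in S and -0.34 in G2/M, and at 72 h -0.74 in G1, 0.20 in S and -0.40 in G2/M.

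ABCC1 encodes MRP1, which exports glutathione conjugates. It was at 7.47 CPM (6.85 to 8.13) with DMSO and 6.09 CPM (5.46 to 6.77) with paclitaxel at 24 h, and at 7.05 CPM (6.33 to 7.83) and 5.82 CPM (5.05 to 6.68) at 72 h. Both paclitaxel libraries were below both DMSO libraries, though the intervals overlapped at 72 h and the upper bound of paclitaxel at 24 h passed the lower bound of DMSO at 72 h. The relative ratio was -0.15 (-0.35 to 0.04) at 24 h and -0.60 (-0.85 to -0.34) at 72 h, just past the limit. The call at 72 h held in 4 of 14 alternatives, over which the ratio ran from -0.61 to -0.28.

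ABCC4 (MRP4) exports cyclic nucleotides and prostaglandins. It was at 10.5 CPM (9.79 to 11.3) with DMSO and 9.28 CPM (8.49 to 10.1) with paclitaxel at 24 h, and at 7.17 CPM (6.44 to 7.96) and 8.29 CPM (7.36 to 9.31) at 72 h, with relative ratios of -0.04 and -0.11 between paclitaxel and DMSO. ABCC5 (MRP5), also a cyclic nucleotide exporter, was at 14.1, 12.4, 12.7 and 12.1 CPM with ratios of -0.04 and -0.39. The first library of each of these genes, DMSO at 24 h, was the highest.

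ABCC10 (MRP7), known as an exporter of taxanes, was at 13.9 CPM (13.1 to 14.8) with DMSO and 11.2 CPM (10.4 to 12.1) with paclitaxel at 24 h, and at 12.4 CPM (11.4 to 13.4) and 14.9 CPM (13.6 to 16.2) at 72 h. Its CPM was thus lower with paclitaxel at 24 h and higher at 72 h without overlap of the intervals, but the relative ratios were -0.17 (-0.31 to -0.02) and -0.05 (-0.23 to 0.12), and neither was called. ABCC10 overlaps DLK2 on the other strand.

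The remaining drug-efflux members were near the lower end of what the tables list. ABCG2, the breast cancer resistance protein gene, was listed in the paclitaxel tables alone, at 0.27 CPM (15 UMIs) at 24 h and 0.32 CPM (11 UMIs) at 72 h. Its absence from the DMSO tables bounds it at about 0.15 CPM at 24 h and 0.14 CPM at 72 h, if each cell held 1 UMI, and in thinned cells 1.33% and 0.83% of the paclitaxel cells held a UMI. ABCC2 (MRP2) was listed in DMSO at 24 h alone, at 0.17 CPM. ABCC8 is a potassium channel subunit rather than an exporter, and was at 0.40, 0.63, 0.95 and 0.40 CPM.

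**Figure D3:**
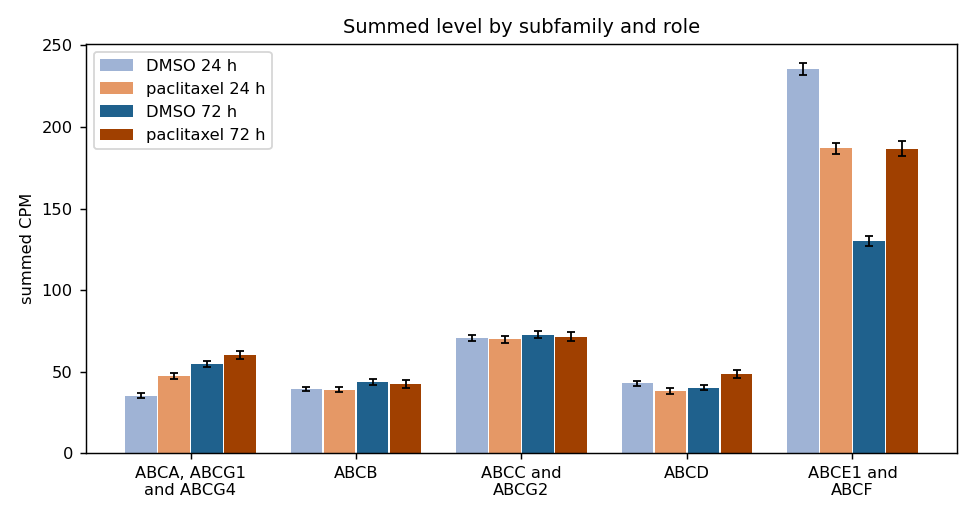
Summed CPM of the members by role in each library; bars start at 0, and error bars are exact 95% Poisson intervals. The ABCC and ABCG2 sums lie between 69.9 and 72.8 CPM, while ABCE1 and ABCF run from 130 to 235 CPM.

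Among the peroxisomal and lysosomal ABCD genes, ABCD3 and ABCD4 were not called between paclitaxel and DMSO. ABCD3, a peroxisomal importer of branched chain fatty acids and bile acid intermediates, was at 17.5, 15.03, 12.6 and 15.2 CPM in DMSO and paclitaxel at 24 h and DMSO and paclitaxel at 72 h. ABCD4, which exports vitamin B12 from lysosomes, was at 19.1, 15.4, 18.7 and 18.1 CPM in that order.

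The members without a membrane domain were lowest in DMSO at 72 h. ABCE1, the factor that splits ribosomes after termination, was at 37.7 CPM with DMSO and 33.3 CPM with paclitaxel at 24 h, and at 22.4 and 35.6 CPM at 72 h. ABCF1, which acts in translation initiation, was at 156, 118, 83.4 and 117 CPM in that order, ABCF2 at 31.7, 26.2, 17.0 and 24.2 CPM, and ABCF3 at 10.1, 9.03, 7.29 and 10.2 CPM. The summed level of the 4 genes was 235, 187, 130 and 187 CPM. Relative to abundant genes 0 of the 4 were called in any of these comparisons, with ratios of -0.26 to -0.01 for paclitaxel against DMSO at 24 h and 0.17 to 0.34 at 72 h. Without the subtraction ABCE1, ABCF1 and ABCF2 were called lower in DMSO at 72 h than at 24 h (-0.75, -0.90 and -0.90), and on totals without ribosomal protein and MT- genes ABCF1 and ABCF2 still were (both -0.61). Without the subtraction ABCE1 was also called higher with paclitaxel than with DMSO at 72 h (0.66). ABCE1 overlaps ANAPC10 and OTUD4 on the other strand and ABCF2 has 2 pseudogene copies.

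The other members with a mean under 1 CPM were ABCG4, at 0.26 to 0.46 CPM, ABCA4, listed in DMSO at 72 h alone (0.22 CPM), ABCA6, listed in the 72 h tables, and ABCA10, listed in all tables but DMSO at 24 h. None of them passed the minimum for a call.

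Single cells held few molecules of each member. With every cell thinned to 20000 UMIs, which left out 17 to 39 shallower cells per library, the median cell had UMIs of 5 different members in each library. At least 1 UMI of an ABCC gene or ABCG2 was found in 72.6% and 70.7% of cells in DMSO and paclitaxel at 24 h and in 74.2% and 70.5% at 72 h; without thinning the shares were 95.9%, 92.5%, 94.5% and 90.8%. ABCC3 was found in 35.6%, 40.4%, 44.3% and 39.5% of thinned cells, ABCC1 in 13.6%, 12.8%, 13.1% and 10.2%, and ABCF1 in 93.1%, 86.4%, 81.2% and 83.2%. No cell type that should lack these genes was present, so the share that free RNA gives was not measured.

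Among members at 5 to 50 CPM, ABCC3 was spread most unevenly over cells. Had its UMIs been spread at random, 40.5%, 49.3%, 53.2% and 48.8% of cells would have held one, more than was found in each library. Cells with at least 3 UMIs made up 3.43%, 6.53%, 7.83% and 6.03%, beside 1.59%, 3.16%, 4.16% and 3.05% under a random spread. Its Fano factor, the variance over the mean of thinned counts, was 1.42, 1.69, 1.64 and 1.79. That was the highest of the 17 to 19 members at 5 to 50 CPM in each library. In paclitaxel at 72 h ABCE1 (1.72) and ABCA7 (1.60) came near it. All genes in that range had medians of 1.07, 1.11, 1.08 and 1.29 and 90th percentiles of 1.22, 1.33, 1.27 and 1.90, so in paclitaxel at 72 h ABCC3 lay inside the range of most genes. ABCF1, above that range of levels, had Fano factors of 1.40, 1.44, 1.31 and 2.12, above the median of genes at 50 to 500 CPM in DMSO at 24 h (1.29) and below it in the other 3 libraries.

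**Figure D4:**
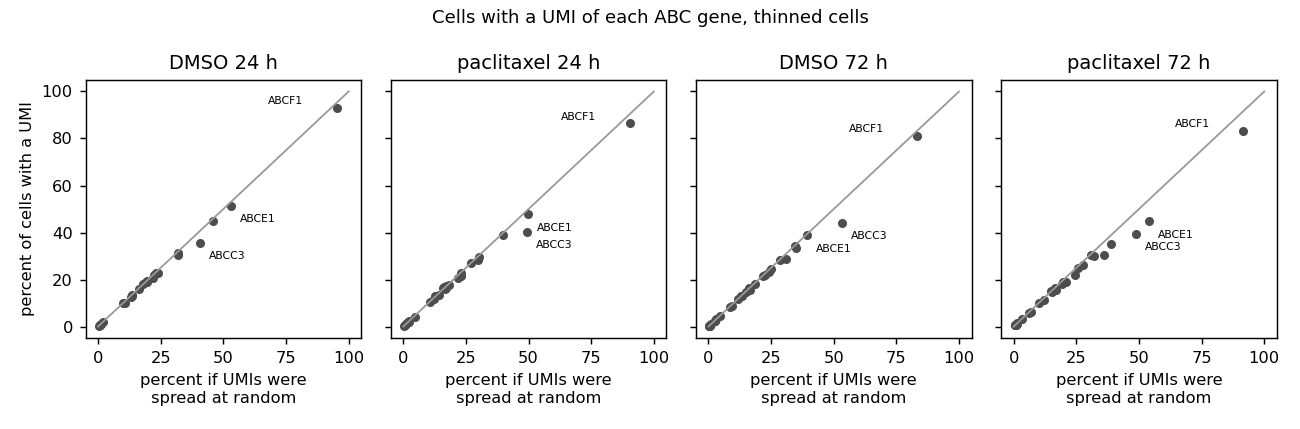
Percent of thinned cells with a UMI of each member against the percent if UMIs were spread at random, by library; each point is 1 gene and the line marks equality. ABCC3 lies below the line in each library, for example 44.3% against 53.2% in DMSO at 72 h.

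The level of ABCC3 differed between called cell cycle phases; its spread within a phase was not measured. Cells called G1 held ABCC3 at 37.6 CPM with DMSO and 52.1 CPM with paclitaxel at 24 h, and at 44.7 and 34.2 CPM at 72 h, where cells called G2/M held 22.2, 16.5, 20.6 and 19.2 CPM. G1 was above G2/M in every library, with no overlap of the intervals. The relative log2 ratio of G1 to G2/M was 0.93 (0.75 to 1.10), 1.84 (1.68 to 2.01), 1.19 (1.02 to 1.36) and 0.87 (0.64 to 1.11). Their mean was 1.21 ± 0.45 (SD over the 4 conditions, n = 4). An exact two-sided sign-flip permutation test over the 4 libraries gave p = 0.125, the smallest that 4 libraries allow. With every ratio above 0 the test could give no other value, so it decides nothing about ABCC3. Of 20 members tested in all libraries, ABCC3 was the 1 called higher in G1 in all 4 and 0 were lower in all 4, where 1.68% and 3.14% of 12628 genes were. ABCA1, ABCA13 and ABCG1 were outside these 20. Each averaged under 1 CPM over the phases in DMSO at 24 h, and ABCA1 also in paclitaxel at 24 h. The ratio of ABCA1 was 2.19, 1.71, 1.496 and 0.67 in the 4 libraries, above 0 in each. The value in DMSO at 24 h rests on 7 UMIs in G1 and 8 in G2/M. In paclitaxel at 72 h the interval (-0.22 to 1.65) included 0. ABCA1 was called higher in G1 in DMSO at 72 h. The ratio of ABCG1 was -1.42, 1.82, 0.75 and 0.67, called higher in paclitaxel at 24 h. The value in DMSO at 24 h rests on 1 UMI in G1 and 14 in G2/M, with an interval of -6.82 to 1.295. Both ABCG1 intervals at 72 h also included 0, with lower bounds of -0.06 in DMSO and -0.08 in paclitaxel. The ratio of ABCA13 was 0.60, 0.84, -0.59 and 0.73, with intervals that included 0 except in paclitaxel at 24 h. In paclitaxel at 24 h ABCA5 (0.73), ABCA7 (0.69), ABCA13 (0.84) and ABCD4 (0.66) also passed the 1.5-fold limit in G1. ABCB10 had ratios of -0.76 (-1.16 to -0.38) in DMSO and -0.95 (-1.39 to -0.50) in paclitaxel at 72 h. No share of all genes called within a single library is given here, so whether these single-library calls exceed it cannot be told.

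Cells called G1 had lower median depth than cells called G2/M, at 48588.5 to 57054 against 67837.5 to 83393.5 UMIs, and their part in this difference was not tested. A phase is a range of 2 scores, and 10% to 12.5% of cells lay within 0.05 of the limit between G1 and the other phases. Cells near the limit between S and G2/M were not counted. The cells of a library share its preparation, and the 4 libraries are 4 conditions, not replicates. ABCC3 was singled out after its values had been seen.

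**Figure D5:**
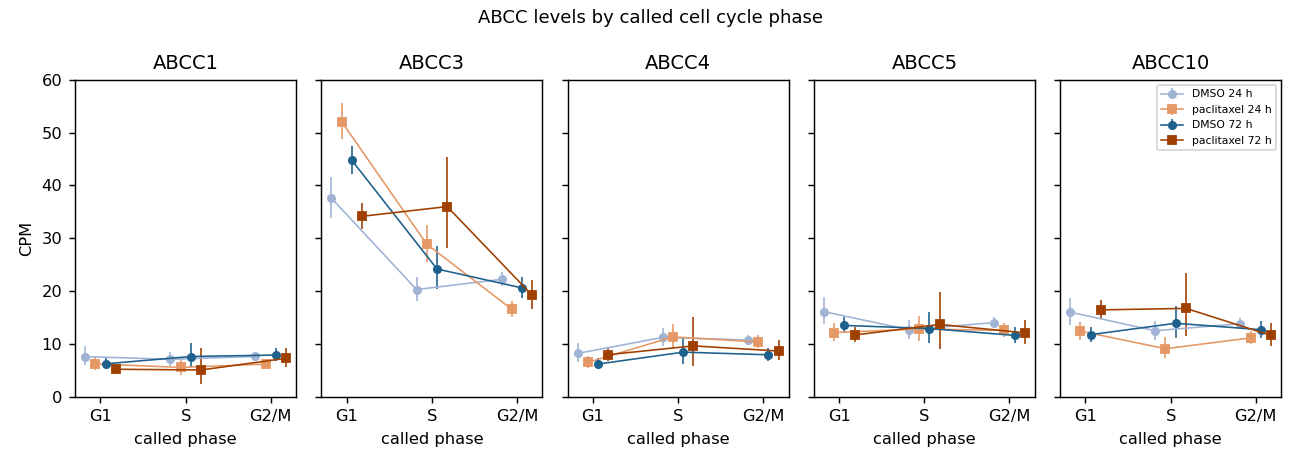
CPM of the 5 tested ABCC genes in cells called G1, S and G2/M; points are summed counts of 1 library, bars exact 95% Poisson intervals, and lines join the phases of a library. ABCC3 is highest in G1 in 3 libraries and lies at 16.5 to 22.2 CPM in G2/M; in paclitaxel at 72 h its S value rests on 30 cells.

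Genes that work with the transporters are given by list, for paclitaxel against DMSO. Of all genes, 9.42% were called higher and 1.91% lower at 24 h, and 13.0% and 11.0% at 72 h; whether a list differed from the members was not tested. Among glutathione genes, which make and attach the group that ABCC1 exports, 1 of 16 tested was higher with paclitaxel at 24 h and 0 lower, and at 72 h 6 of 18 were higher and 1 lower, with median relative log2 ratios of 0.33 and 0.36. GSTM3, a glutathione transferase, was at 12.0, 15.5, 9.65 and 23.6 CPM (0.97 at 72 h) and GSTZ1, an isomerase of the same family, at 11.0, 10.9, 14.8 and 9.64 CPM (-0.94). Among regulators of transporter genes 3 of 17 were higher and 1 lower at 24 h, and 1 higher and 2 lower at 72 h. MAFF, a small partner of the oxidative stress factor NRF2, was at 12.8, 23.0, 20.5 and 59.1 CPM, with ratios of 0.99 and 1.21 that were both called. PPARA, a nuclear receptor for fatty acids, had a ratio of -0.63 at 72 h.

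Peroxisome genes, the setting of ABCD3, had 1 of 21 higher at 24 h, and 2 higher and 1 lower at 72 h, among them PEX3 (0.63), needed to form the membrane. Of ribosome recycling and termination genes, which work with ABCE1, 0 of 13 were called at 24 h and 2 were higher at 72 h, with MCTS1, a factor that frees small ribosomal subunits, among them (0.80). Of mitochondrial iron-sulfur and heme genes 1 of 22 was higher at 24 h, and 2 were higher and 1 lower at 72 h, with ALAS1, the first enzyme of heme synthesis, at 1.12 and UROS, a later one, at -0.69. Sterol and phospholipid genes had 1 of 14 higher at 24 h, and 1 higher and 2 lower at 72 h. Their median relative log2 ratio at 72 h was 0.18. The 2 lower ones were the sterol factors SREBF1 and SREBF2, both at -0.60. In DMSO and paclitaxel at 24 h and then at 72 h, SREBF1 was at 20.5, 26.0, 33.0 and 27.3 CPM. SREBF2 was at 43.2, 49.8, 56.7 and 46.8 CPM in that order.

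TAP1 and TAP2 encode the ABC transporter that carries peptides to class I molecules and stand outside the rule by their symbols. TAP1 was at 21.3 CPM with DMSO and 27.5 CPM with paclitaxel at 24 h, and at 17.2 and 69.2 CPM at 72 h. Paclitaxel at 72 h stood far above the other 3 libraries, with a relative ratio to DMSO of 1.68 (1.57 to 1.80), past the ratio of any member at that time. TAP2 was at 37.4, 29.7, 20.1 and 33.5 CPM, with ratios of -0.19 and 0.42 and no call. Of the peptide loading partners 6 of 11 were higher at 24 h and 7 of 12 at 72 h, with 0 lower, and B2M, the light chain of class I molecules, had a ratio of 1.39 at 72 h. CFTR, an ABC gene that forms a chloride channel, did not reach the minimum for a test.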

How the data were processed

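The values deposited by the authors are raw UMI counts, 1 table per library with genes by cells; the submitters' processing notes name Cell Ranger 2.0 and GRCh38. Barcodes with at least 500 genes and under 20% MT- UMIs were kept. UMIs were summed per library and scaled to CPM; ratios of 2 libraries carry exact (Clopper-Pearson) 95% intervals for 2 Poisson counts, and shares exact binomial ones. Intervals reflect counting error alone, and a single library per group allowed no test between groups; 1 exact permutation test over the 4 libraries compares called phases for ABCC3, chosen after its values were seen. A gene was compared when listed in both tables. Phases of the cell cycle come from scanpy 1.11.5, with 42 S and 54 G2/M genes in thinned cells; scrublet marked 6 to 12 cells per library, which stayed in. TMM factors came from edgeR 4.0.16, used for scaling alone. Coordinates are from GENCODE release 29 (GRCh38), in which all 31 members had 1 locus, and promoters from RefSeq. The calling script was tested on simulated data.

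The members, lists and thresholds were chosen with earlier results of these data known. Given by value are members averaging 1 CPM or more; in full those called between paclitaxel and DMSO, and all ABCC members and ABCG2; from each list the 2 genes with the largest absolute relative ratio at 72 h among those called and averaging 10 CPM or more; and TAP1, TAP2 and CFTR. Some genes that these rules name are not reported here. Alternatives covered cell filters, doublets, scaling, centring, the CPM minimum, the fold, thinning and the reference library. A count of 0 in a library would allow up to 0.0417 to 0.0861 CPM (3 counts).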

Additional observations from a re-analysis of the deposited data

Results flagged for a closer look

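ABCA2 was called higher with paclitaxel at 24 h and lower at 72 h, so its relative log2 ratio changed by -1.46 between the times. It stood out because the 2 times gave calls in opposite directions; the difference itself was not tested, since each time rests on 1 library per arm. Against DMSO at 24 h the paclitaxel library at 72 h had a ratio of 0.17.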

How the results depend on the processing

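No paired analysis was possible because each group is 1 library, and leaving out a replicate was not possible for the same reason. Of the counts, medians, sums and shares, 135 values under alternatives stayed near the reported one and 52 did not, where near means within 1.5 times for a count, within the typical half-width of a member's interval for a median, and inside the reported counting interval for a sum or share. For the single members reported, 1040 values kept sign and side of the limit, 53 changed sign with no call in either setting, 33 lost and 26 gained a call, and 3 changed sign with a call in 1 of the settings.

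For paclitaxel against DMSO at 24 h, 1 member was higher without centring, at 2-fold, and at a 5 CPM minimum, 5 without a minimum, and 4 in cells called G1, where the median ratio was 0.17. At 72 h, the higher count was 0 at 2-fold, at 5 CPM, in cells called G1 and under the stricter filter (at least 2000 genes and 2% to 15% MT-), and 4 without centring, where the median was 0.24. The lower count at 72 h was 0 without centring and at 2-fold, 4 in cells called G1, and 1 with TMM factors, with TMM factors and no centring, with centring on genes of 1 to 50 CPM, with the mean of per-cell CPM, without doublets and under the stricter filter. With DMSO at 24 h as reference, 7 were higher and 0 lower, and ABCA1 (2.80), ABCA2 (0.17) and ABCA7 (1.00) reversed.

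For DMSO at 72 h against 24 h, 5 were higher at 2-fold and 5 without centring; 3 were lower without centring, with TMM factors and no centring, and with centring on genes of 1 to 50 CPM, and 2 on totals without ribosomal protein and MT- genes and no centring. The median was -0.0591 without centring, 0.0872 with TMM factors and no centring, and 0.0766 with centring on genes of 1 to 50 CPM. For paclitaxel at 72 h against 24 h, 1 was higher at 5 CPM, and 1 was lower with TMM factors and no centring, with centring on genes of 1 to 50 CPM, with the mean of per-cell CPM, and in cells called G1.

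Summed drug-efflux CPM was 72.7 (DMSO 24 h), 74.5 (paclitaxel 24 h) and 74.99 (paclitaxel 72 h) as a mean of per-cell CPM, and 109, 116, 138 and 110 on totals without ribosomal protein and MT- genes. The share of cells with an ABCC or ABCG2 UMI was 95.9%, 92.5%, 94.5% and 90.8% without thinning, and 50.3%, 49.5%, 46.6% and 49.2% at 10000 UMIs. The uncentred scalings other than no centring were chosen after seeing the data. Fewer genes or cells enter the stricter minimum, fold and G1 settings by construction; for the others the cause was not tested. Depth limits members near 1 CPM: ABCG2 rests on 11 and 15 UMIs.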

Other observations

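In the paclitaxel library at 72 h, 51 of 520 cells had under 2% MT- UMIs, where the other libraries had 6 to 11 such cells. In these 51 cells, whose median depth was 33787 UMIs, ABCE1 was at 55.7 CPM (159 UMIs) beside 33.8 CPM in the other cells of that library. ABCF1 was at 89.0 beside 119 CPM, ABCC3 at 16.1 (46 UMIs) beside 31.0 CPM, and ABCA7 at 10.9 (31 UMIs) beside 24.1 CPM. The cells were set apart by a limit chosen from the data and are not a group of the study.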
